A study of Mus musculus with 2 samples.

Results

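The 4 Hox clusters of the mouse genome held 44 of the 92924 p53 peaks that the study's list contains. Peaks were chosen by position alone: a peak belonged to a cluster if its midpoint lay in a fixed window of build mm9, which was chromosome 6 from 52.09 to 52.23 Mb for HoxA, chromosome 11 from 96.04 to 96.25 Mb for HoxB, chromosome 15 from 102.74 to 102.88 Mb for HoxC and chromosome 2 from 74.49 to 74.62 Mb for HoxD. The HoxA window held 8 peaks, HoxB 13, HoxC 12 and HoxD 11. The clusters were labelled by 38 genes, which were Hoxa2 to Hoxa13 (10 genes), Hoxb1 to Hoxb13 (10), Hoxc4 to Hoxc13 (9) and Hoxd1 to Hoxd13 (9).

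The study sequenced 2 libraries from mouse embryonic stem cells, 1 of chromatin pulled down with the p53 antibody M-19 and 1 of input chromatin without antibody. The cells were of mixed C57BL/6X129Sv origin, had been passaged less than 20 times and were kept undifferentiated with leukemia inhibitory factor. Both libraries came from cells exposed for 8 hours to Nutlin, a small molecule that frees p53 from its ubiquitin ligase Mdm2. The dose is the same number, 20, for both libraries. The series design and the sample protocols give it in different units, so its unit is not settled. There is no untreated library and no replicate, so neither a response to Nutlin nor an error between cultures can be measured, and intervals cover the counting error of peaks only.

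Hox genes encode homeodomain transcription factors that give cells their position along the body axis. Within a cluster, genes with low numbers, such as Hoxb1 in the hindbrain, act early and toward the head, and genes with high numbers, such as Hoxa13 and Hoxd13 in the digits and the urogenital tract, act late and toward the tail. In undifferentiated embryonic stem cells the clusters are mostly silent and are a classic target of Polycomb repression. p53 binds DNA as a tetramer, and its consensus site is made of a pair of decamers, each with purines on the left, pyrimidines on the right and a C and a G near its centre.

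The peak sequences were not used here because no mm9 genome was at hand, so the p53 consensus decamer was searched in RefSeq promoters (250 bases before to 50 after a gene's start, build GRCm38.p6), where 22 of the 38 Hox genes had 24 entries. HoxB had entries only for Hoxb1, Hoxb4 and Hoxb8, and HoxC only for Hoxc4, so most entries came from HoxA and HoxD. The decamer reads the same on both strands, so 1 search covers both. It occurred in 3 of the 24 Hox promoters (12.5%) and in 8.36% of 32851 promoters of all genes. These 3 stretches are shown because they carry the letters of the consensus decamer, with the decamer in capitals, on chromosome 6 from 52245878 to 52245927 (minus strand), chromosome 2 from 74691666 to 74691715 (plus strand) and chromosome 2 from 74721728 to 74721757 (plus strand).
Hoxa11: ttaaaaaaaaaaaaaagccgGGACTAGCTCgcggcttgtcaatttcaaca
Hoxd10: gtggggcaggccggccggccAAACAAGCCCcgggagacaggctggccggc
Hoxd4: GGACAAGCCTaccaaccagccttgtccaaa
The decamer started 97 bases before the gene start of Hoxa11, 205 bases before that of Hoxd10 and 250 bases before that of Hoxd4, at the edge of the promoter window. A full site, with 2 decamers up to 13 bases apart, was in 0 of the 24 Hox promoters and in 0.0731% of all promoters. Hox promoters held more CG dinucleotides, with a median of 14.5 (range 4 to 45) against 7 over all genes. Because these promoters are on another build than the peaks, no peak was placed on a promoter, and none of the peaks below is tied to a single gene.

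Together the 4 windows (620 kb) held 71.0 p53 peaks per Mb (exact Poisson 95% interval 51.6 to 95.3). The 200 kb on either side of each window held 46.9 per Mb (75 peaks, 36.9 to 58.8), and all autosomes held 38.2 per Mb. The windows were therefore 1.51 times as dense as their flanks (exact conditional 95% interval 1.02 to 2.23) and 1.86 times as dense as the rest of the autosomes (1.35 to 2.49). Peaks lie in groups along chromosomes, so these intervals are too narrow. Chromosomes also differ: those of HoxA, HoxB, HoxC and HoxD held 30.7, 61.2, 40.1 and 41.7 peaks per Mb. The ratio to the flanks rested on HoxC and HoxD: it was 1.24 (0.792 to 1.92) without HoxD, 1.43 (0.895 to 2.24) without HoxC and 1.42 (0.93 to 2.14) with peaks up to 1 kb apart merged, all with intervals that include 1.

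By single cluster, the densities of HoxC and HoxD were above both of their flanks, and those of HoxA and HoxB lay between theirs. HoxD held 84.6 peaks per Mb (42.2 to 151) against 25 in its flanks, a ratio of 3.38 (1.30 to 8.89). Its interval included 1 with flanks of 100 kb (2.82, 0.956 to 9.29) and with scores of 100 or more (2.31, 0.338 to 13.6). HoxC held 85.7 per Mb (44.3 to 150) against 47.5 in its flanks, a ratio of 1.8 (0.799 to 3.92). HoxB held 61.9 per Mb (33.0 to 106) against 52.5, a ratio of 1.18 (0.542 to 2.47). Its density was close to that of the whole of chromosome 11 (61.2 per Mb). HoxA held 57.1 per Mb (24.7 to 113) against 62.5, a ratio of 0.914 (0.356 to 2.09). Merging of peaks up to 1 kb apart turned both directions, to 0.857 (0.344 to 1.97) for HoxB and 1.04 (0.400 to 2.42) for HoxA. For HoxA, HoxB and HoxC these differences from the flanks were within counting error. Among peaks with scores of 100 or more, the ratio was 3.67 for HoxC (1.22 to 11.6), which leaves out 1, and the direction turned for HoxA (2.86, 0.658 to 12.4) and HoxB (0.519, 0.0931 to 1.97).

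None of the 4 counts was rare for the genome. Of all autosomal tiles of the same length, 25.8% held at least the 8 peaks of HoxA, 23.1% at least the 13 of HoxB, 14.8% at least the 12 of HoxC and 15.1% at least the 11 of HoxD. The median tile held 3 peaks at the length of HoxA and HoxC, 5 at that of HoxB and 3 at that of HoxD. All 4 windows were thus above the median tile. Tiles were taken over all autosomes (38.2 peaks per Mb), and the chromosome of HoxB is denser than that (61.2 per Mb). Between clusters, the interval of the density ratio included 1 in all 6 pairs, from HoxA over HoxC (0.667, 0.236 to 1.77) to HoxC over HoxD (1.01, 0.409 to 2.53).

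**Figure D1:**
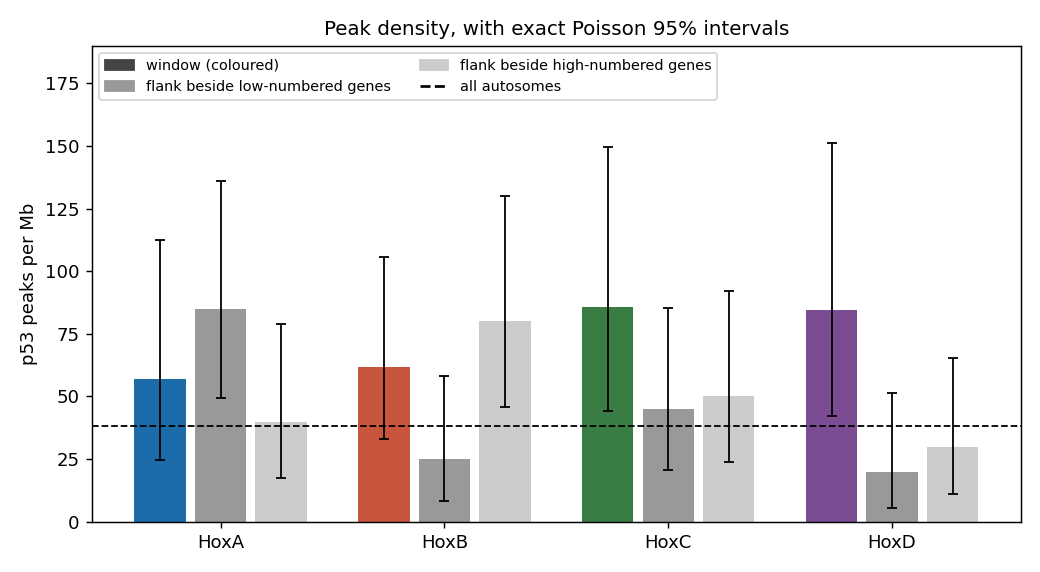
Bars show p53 peaks per Mb (y axis) in each Hox window (coloured) and in the 200 kb flank on the side of the low-numbered genes (dark grey) and of the high-numbered genes (light grey), with exact Poisson 95% intervals; the dashed line is the density over all autosomes. The HoxD window at 84.6 per Mb stands above both of its flanks (20 and 30), whereas a flank exceeds the window at HoxA (85) and HoxB (80).

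The flanks on the 2 sides of a cluster also differed in number of peaks, in no common direction. The flank beside the low-numbered genes of HoxA held 17 peaks and the other flank 8. At HoxB the order was the opposite, with 5 peaks beside Hoxb1 and 16 beside Hoxb13. HoxC had 9 and 10, and HoxD 4 and 6. In total, flanks beside low-numbered genes held 35 peaks and flanks beside high-numbered genes 40.

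The scores of p53 peaks in the Hox clusters were spread much as in the whole list. The score of a peak is the authors' own value from their peak caller; it starts at 50 in this list and goes up to 3233.06. It reached 100 or more in 20 of the 44 Hox peaks (45.5%, Clopper-Pearson 95% interval 30.4% to 61.2%), while 43.0% of the whole list did, so the share is at the level of the list. It reached 1000 or more in 2 of 44 (4.55%, 0.555% to 15.5%), against 5.77% of the whole list. In the flanks, 27 of 75 peaks (36.0%) reached 100 and 2 of 75 reached 1000, the class called strong here. The median score was 96.7 in the windows, 75.2 in the flanks and 87.5 over the list.

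The median scores of HoxA and HoxC were above the list's median and those of HoxB and HoxD below it, all within counting error. Scores of 100 or more belonged to 9 of the 12 HoxC peaks (75%, 42.8% to 94.5%) and 5 of the 8 HoxA peaks (62.5%, 24.5% to 91.5%). They belonged to 3 of the 11 HoxD peaks (27.3%, 6.02% to 61.0%) and 3 of the 13 HoxB peaks (23.1%, 5.04% to 53.8%). Median scores were 133 in HoxC (63.3 to 204), 129 in HoxA (71.4 to 3100), 81.6 in HoxB (55.2 to 121) and 62.0 in HoxD (52.1 to 120). Each of these 95% intervals includes the list's median of 87.5. The intervals of the shares overlap between all clusters, and each includes the list's 43.0%. Among peaks of 100 or more only, HoxB had 0.222 times the density of HoxC (0.0387 to 0.890), the single pair of the 6 whose interval did not include 1 there, with no adjustment over the pairs.

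**Figure D2:**
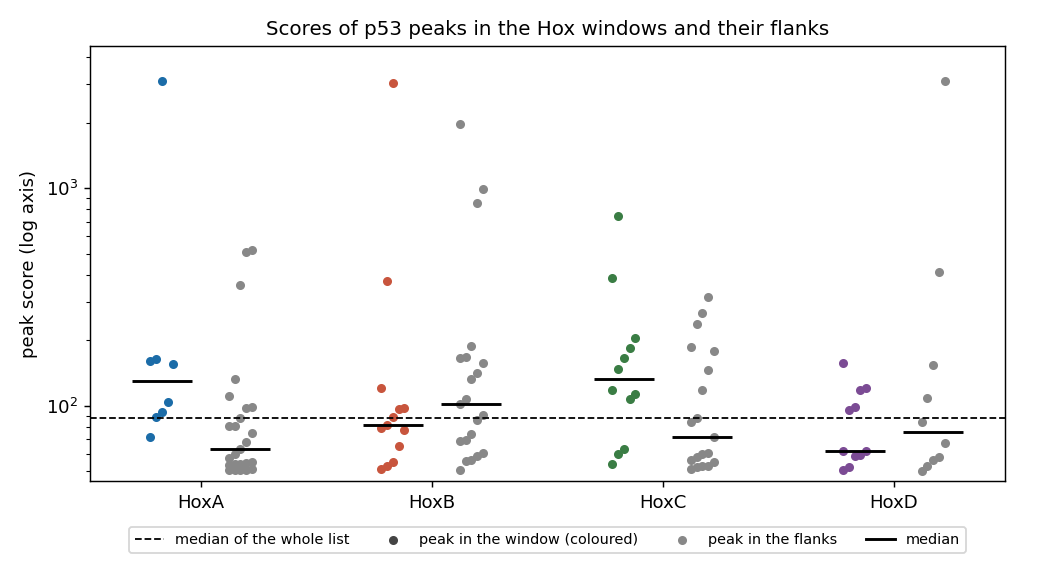
Each dot is the score (y axis, log scale) of 1 p53 peak in a Hox window (coloured) or in its flanks (grey); black bars are medians and the dashed line is the median of the whole list, 87.5. HoxA and HoxB each have a single peak (3100 and 3025.29) far over their other peaks, HoxC has 9 of 12 peaks at 100 or more, and no HoxD peak exceeds 156.68.

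HoxA had the highest-scoring peak of all 44. It lay on chromosome 6 from 52102170 to 52102847, 12.5 kb inside the edge on the side of Hoxa2, and had a score of 3100, a value shared by 1390 peaks of the list. That many equal scores point to a ceiling, although the list goes up to 3233.06, so 3100 may not rank the strength of this peak. Only 1.62% of the list scored as high or higher, and with 678 bases the peak was also the widest of HoxA. The other 7 HoxA peaks scored between 71.38 and 163.47, so 1 peak stood far apart from the rest. Next were the peak nearest to the Hoxa13 side, from 52219380 to 52219686 (score 163.47, 307 bases), and the peak from 52114976 to 52115319 (159.61, 344 bases). Both were narrow for the list, of which 95.8% and 91.3% of peaks were at least as wide. The longest stretch between neighbouring HoxA peaks, 37.0 kb, ran from 52125609 to 52162644, from 35.3 to 73.0 kb inside the Hoxa2 edge when measured between midpoints.

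HoxB, where Hoxb1 is at the high end of the window and Hoxb13 at the low end, also had a single strong peak. It lay on chromosome 11 from 96113749 to 96114428, 136 kb from the Hoxb1 edge, with a score of 3025.29 (matched or exceeded by 1.67% of the list) and a width of 680 bases. It was 1 of a chain of 4 peaks between 96112223 and 96114762, separated by 354, 160 and 31 bases. The others in the chain scored 52.8, 77.13 and 120.69, so the strong peak had far lower-scoring ones on both sides within 2540 bases. The second highest score, 374.28, belonged to the peak from 96088783 to 96089442 (660 bases), and the third to the chain's peak from 96114460 to 96114762 (120.69, 303 bases). The remaining 10 HoxB peaks were under 100, including the widest, from 96214156 to 96214935 (780 bases, score 79.03). A stretch of 42.1 kb without a peak, from 96161205 to 96203261, was the longest within any of the 4 windows.

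HoxC had no peak of 1000 or more (0% to 26.5%, against 5.77% of the list), but 9 of its 12 peaks scored at least 100. Its highest score was 743.29, for the peak on chromosome 15 from 102837604 to 102838344, which at 741 bases was also its widest. The next were 384.5, from 102833036 to 102833669, and 204.16, from 102814866 to 102815485. The first and second of these lay close together, with 2 weaker peaks (113.53 and 54.15) between them, 42.0 to 46.6 kb from the Hoxc4 edge. No peak lay in the 41.7 kb between the end of that group and the window's edge beside Hoxc4. From there toward Hoxc13, peaks followed at intervals of at most 17.6 kb (from 102815486 to 102833035), the shortest longest stretch among the 4 windows.

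HoxD was dense in peaks, and none of them was strong (0 of 11, 0% to 28.5%). The list's share of 5.77% lies inside this interval, so the absence is within counting error. The highest score was 156.68, on chromosome 2 from 74506508 to 74507133 (626 bases), on the Hoxd13 side. It was followed by 120.18, from 74520182 to 74520742 (561 bases), and 118.34, from 74600897 to 74601674, the peak nearest to the Hoxd1 edge and with 778 bases the widest of the cluster. The other 8 HoxD peaks scored from 50.55 to 98.13. Under the list's median of 87.5 were 6 of all 11 HoxD peaks. By definition that median has equally many peaks of the list on either side, so this share is near that of the list. The longest stretch without a peak was 24.8 kb, from 74536450 to 74561247. Of the 11 peaks, 6 lay in the part of equal length beside Hoxd13 when the window was divided in 3, 2 in the middle and 3 beside Hoxd1.

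**Figure D3:**
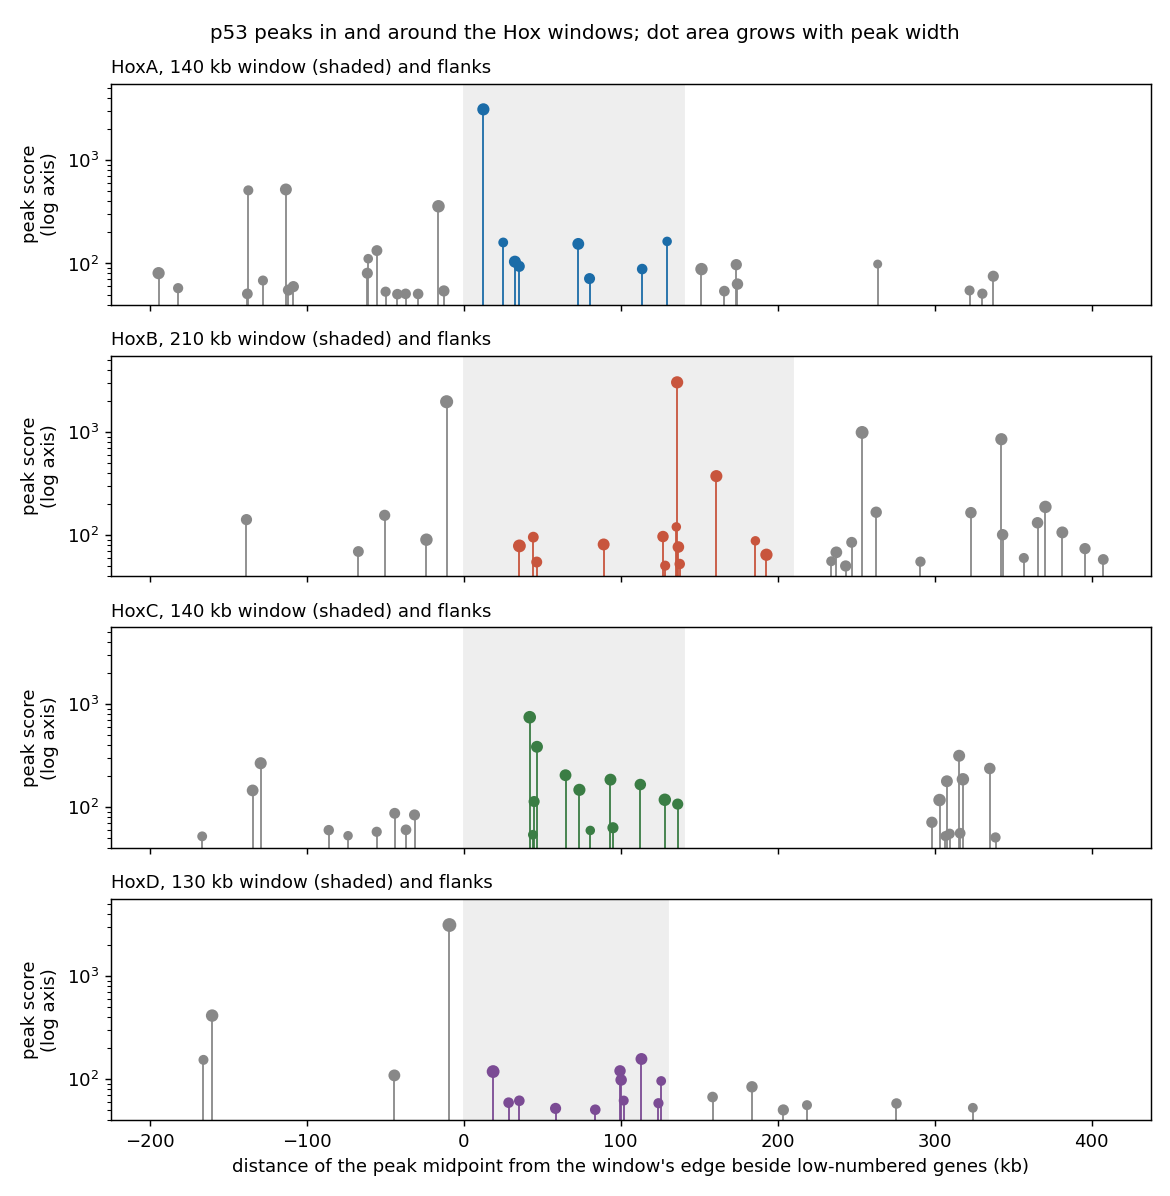
Each panel shows 1 Hox cluster: the x axis is the distance of a peak's midpoint in kb from the window's edge beside the low-numbered genes, the y axis the peak score on a log scale, and dot area grows with width; the shaded box is the window, grey dots are flank peaks. Strong peaks stand at 12.5 kb in HoxA and 136 kb in HoxB, HoxC peaks spread over the window from 42.0 kb on, and the nearest peak beyond the Hoxc13 edge is 158 kb away.

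No part of the clusters could be shown to hold more peaks than another. With each window divided in 3 parts of equal length, the parts beside the low-numbered genes held 14 peaks, the middle parts 14 and the parts beside the high-numbered genes 16. In the same order, HoxA had 4, 2 and 2, HoxB 3, 7 and 3, HoxC 4, 3 and 5, and HoxD 3, 2 and 6. With each window divided in 2, the side of the low-numbered genes held 17 peaks and the side of the high-numbered genes 27 (61.4%), with 4 and 4 in HoxA, 4 and 9 in HoxB, 5 and 7 in HoxC, and 4 and 7 in HoxD. With peaks up to 1 kb apart merged, the 3 parts of the 4 windows held 13, 10 and 15 peaks, and those of HoxB 3, 3 and 3. Counts this small do not show an order of the parts. Neighbouring peaks in the windows were a median of 7.89 kb apart (40 pairs), against 8.33 kb on the autosomes and 8.30 kb in the flanks. At most 1 kb separated 6 of the 40 pairs (15.0%), 4 of them in HoxB, while 12.9% of autosomal neighbours were as close. Of 62 bins of 10 kb in the windows, 30 (48.4%) held no peak, against 64.4% in the flanks and 73.9% of all autosomal bins. The emptiest window by this measure was HoxB (13 of 21 bins) and the fullest HoxD (4 of 13 bins without a peak).

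Peaks in the Hox clusters were about as wide as those of the list. The median was 521 bases (quartiles 437 and 635, range 303 to 780) in the windows, 510 in the flanks and 509 over the list. By cluster it was 597 in HoxC, 564 in HoxB, 512 in HoxA and 448 in HoxD, and the ranges overlapped. Peaks covered 3.76% of the windows and 2.44% of the flanks, with 4.84% in HoxC, 4.22% in HoxD, 3.32% in HoxB and 2.91% in HoxA. They covered 2.15% of the autosomes, and 2.29%, 2.37%, 3.57% and 1.67% of the chromosomes of HoxC, HoxD, HoxB and HoxA. HoxB alone was below its chromosome. HoxA was the only cluster with a lower covered share than its flanks (3.01%).

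Stronger Hox peaks were wider, as in the list. Peaks of 100 or more had a median width of 630 bases (20 peaks) and those under 100 of 460 bases (24 peaks), and the list had 643 and 448. Width and score come from the same peak caller, and Spearman's rho between them, given as a description, was 0.50 over the 44 peaks and 0.65 over the 75 flank peaks. It was 0.78 in HoxC (12 peaks), 0.55 in HoxD (11), 0.15 in HoxB (13) and 0.10 in HoxA (8). HoxA and HoxB each had peaks with scores over 100 and widths down to 307 and 303 bases, and HoxB also had its widest peak under 100.

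**Figure D4:**
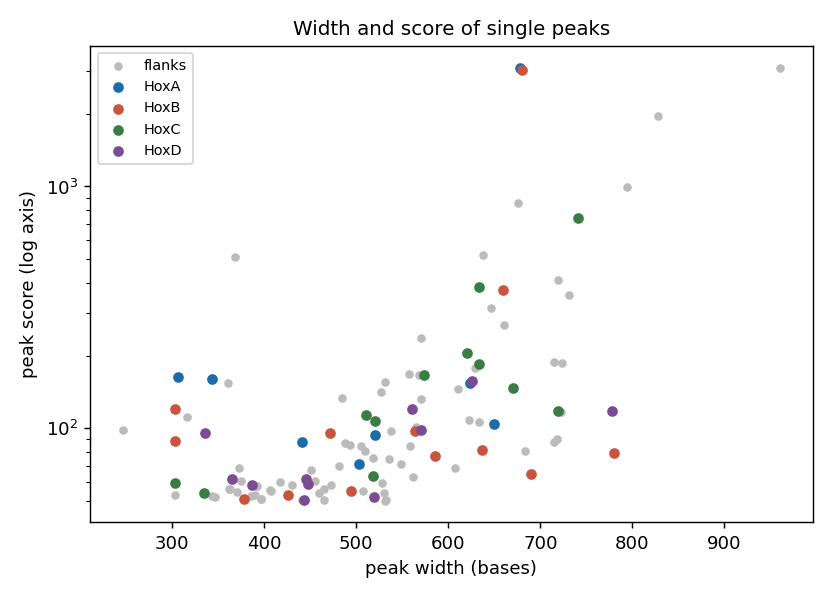
Each dot is 1 p53 peak, with its width in bases on the x axis and its score on a log y axis; colours mark the Hox windows and grey the flanks. The 2 highest peaks inside the windows (scores 3100 in HoxA and 3025.29 in HoxB) have widths of 678 and 680 bases, and no HoxD peak exceeds 156.68 at any width.

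Among the 16 peaks nearest to the window edges, inside and outside, were 3 strong ones, all at edges beside low-numbered genes. Over the list, 5.77% of peaks were strong, and 3 peaks are too few to show an excess at these edges. At the low-numbered edge of HoxA the first peak inside was the strong one (3100), and the first outside, 12.6 kb away, scored 54.2. At the Hoxb1 edge the order was the opposite: 79.03 inside at 35.5 kb, and 1963.81 outside at 10.9 kb, from 96260487 to 96261314, the highest score in the HoxB flanks. HoxD had the same arrangement at the Hoxd1 edge, with 118.34 inside at 18.7 kb and 3100 outside at 9.12 kb, from 74628639 to 74629598 (960 bases), the highest in its flanks. At the Hoxc4 edge the first peak inside scored 743.29 and the first outside 84.27. At the 4 edges beside high-numbered genes, the first peaks inside scored 163.47, 64.91, 107.23 and 95.92 (HoxA to HoxD) and the first outside 88.14, 56.15, 71.48 and 67.08. A window limit moved outward by 10.9 kb at HoxB or 9.12 kb at HoxD would reach the midpoint of a strong peak. The highest flank scores of HoxA and HoxC were 520.1 and 314.89, 113 kb and 176 kb from the windows.

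A peak with a score of 1000 or more stood within 15 kb of 3 of the 8 window edges, and all 3 were edges beside low-numbered genes. The distances were 12.5 kb at HoxA (inside), 10.9 kb at HoxB (outside, beyond Hoxb1) and 9.12 kb at HoxD (outside, beyond Hoxd1), and at the Hoxc4 edge it was 345 kb. At the edges beside Hoxa13, Hoxb13, Hoxc13 and Hoxd13 the nearest such peak was 127, 74.1, 205 and 139 kb away. Over the autosomes, 6.12% of positions lay within 15 kb of such a peak. The distance of 15 kb was chosen after these values were seen, and the window edges are round positions rather than gene ends, so the count is a description only.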

How the data were processed

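The cells and libraries are described above. Peaks are those the authors deposited as 1 list without a header; CASAVA 1.8.2, MACS 1.4.1 and build mm9 are named in the submitters' processing notes. Neither aligner, read totals, duplicate handling nor caller settings are given in the sources used here, which leaves depth unknown. The score was deposited by the authors with no stated scale; on the scale of MACS 1.4, 10 times the negative log10 of p, its lowest value of 50 would be p = 1e-05. Starts are printed counted from 1. A stronger peak and a deeper library cannot be told apart by score, so peaks were compared inside the list only.

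Windows, members and lists were chosen with earlier results of these data known. Named peaks were, per window, the 3 highest scores, the widest peak, the longest stretch between neighbours and every score of 1000 or more, and the highest score of each pair of flanks. Gene order, which orients the clusters, came from a RefSeq table on GRCm38.p6, of which no position was set beside a peak. Tiles of a window's length were laid from the first peak of each of 19 autosomes. Intervals (95%) are exact and treat peaks as independent. No p-value was computed, because each group has 1 library. Functions were tested on simulated data. Python 3.11.15, NumPy 2.4.6, pandas 2.3.3, SciPy 1.17.1 and Matplotlib 3.10.9 were used. Alternatives were score minimums of 100 and 500, merging of peaks up to 1 kb apart, assignment by overlap, windows shortened by 10 kb at both ends, flanks of 100 and 500 kb, shifted tiles and division in 2; leaving out clusters and using flanks of 1 side were added after seeing the data.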

Additional observations from a re-analysis of the deposited data

How the results depend on the processing

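Of 170 alternative values for 65 results, 151 kept their call or stayed within the interval of the main value, and none reversed a ratio whose interval left out 1. Some of the 151 could hardly have changed. Assignment by overlap gave the same values as the main setting, and the intervals of the HoxA medians ran from its lowest to its highest value. The ratio of the 4 windows to their flanks (1.51) was 1.91 with scores of 100 or more, 1.71 with shortened windows and 1.49 with flanks of 500 kb; its interval came to include 1 with merged peaks (1.42), flanks of 100 kb (1.58), only the flanks beside high-numbered genes (1.42), without HoxC (1.43) and without HoxD (1.24). With scores of 100 or more, the ratio to the flanks was 2.86 for HoxA, 0.519 for HoxB, 3.67 for HoxC (an interval that left out 1) and 2.31 for HoxD (one that included it); flanks of 100 kb gave 2.82 for HoxD. The same minimum gave density ratios of 2.50 for HoxA over HoxB, 0.222 for HoxB over HoxC and 2.79 for HoxC over HoxD, gave a median width of Hox peaks of 630 bases, and by construction raised the median score to 158 (374 in HoxB). With flanks of 100 kb, 0% of HoxC flank peaks and 25% of all flank peaks scored 100 or more, and peaks covered 1.28% of the HoxC flanks. The ratio to the flanks also changed direction with merged peaks (1.04 for HoxA, 0.857 for HoxB) and with flanks of 500 kb (1.06 for HoxA, 0.967 for HoxB). The cause of these shifts was not tested. No paired analysis was possible because both groups hold a single library, and no replicate could be left out. With 8 to 13 peaks per window, only large differences are detectable, and unknown depth limits any statement on weak peaks.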

Other observations

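The longest stretch without a peak at any of the 8 window edges crossed the HoxC edge beside Hoxc13. It measured 161 kb, from 102582110 to 102743466 on chromosome 15 (mm9), and a stretch at least this long is not rare: such stretches make up 33.0% of the length of the autosomes between their first and last peaks. At the other 7 edges the stretch ran from 21.4 to 72.8 kb. Assembly gaps were not used here.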
